A study of Mus musculus with 14 samples.

Results

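Insulin and the insulin-like growth factors (IGFs) act on cells through a small family of receptors and adaptors, and the transcripts of 10 genes of this system were followed here in mouse oligodendrocyte precursor cells (OPCs) and the oligodendrocytes (OLs) they give rise to. The 10 genes were the receptors Insr and Igf1r, the receptor substrates Irs1, Irs2 and Irs4, the ligand Igf1 and the binding proteins Igfbp2, Igfbp3, Igfbp4 and Igfbp5, out of 23427 genes in the table. They were chosen by symbol. Irs4 was selected because it was among the largest rises after knockdown of Secisbp2l. Its values in that comparison are therefore given as a description, with no test. The other 9 were taken by the name of their pathway with earlier results of these data known, so their tests carry that limit. The study asked what is altered in OPC/OLs by loss of Secisbp2l, also called Sbp2l, whose paralog Sbp2 helps build selenocysteine into proteins. All groups were C57BL/6J primary OPCs, labelled WT except for the 2 knockdown groups, which carry the name of their knockdown. Per the study's methods the cells had been panned on an antibody against PDGFRα from the cortices of pooled pups at postnatal day 7, after removal of microglia and endothelial cells on lectin-coated plates. OPCs were brought to differentiate by removing PDGF-AA and adding the thyroid hormone T3. The 14 mRNA-seq libraries formed 7 groups of 2, which the methods call independent replicates of cultured OPCs, so p-values measure only the spread between such pairs. Day0 was the group of OPCs before differentiation. The other 6 groups were taken at Day3, namely non-treated cells, mock cells, cells with NC siRNA #1 or NC siRNA #2, which are non-targeting small interfering RNAs, and cells with an siRNA against Secisbp2l (siSbp2l) or against Pdgfra (siPdgfra). A single siSbp2l group and a single siPdgfra group were available, so an effect of the target and one of the siRNA itself cannot be told apart. The label for growth names DMEM with serum, whereas the methods describe a defined medium with added insulin, so every group may have been cultured with insulin present.

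Insulin binds the receptor encoded by Insr, and IGF1 and IGF2 bind mainly the receptor encoded by Igf1r. Both receptors are tyrosine kinases that phosphorylate the insulin receptor substrates (Irs proteins), large docking proteins that recruit PI3-kinase and so switch on Akt and mTOR and keep FoxO transcription factors out of the nucleus. IGF-binding proteins hold IGFs outside the cell and set how much reaches the receptor. In the OL lineage, IGF signalling is known for supporting the survival and growth of OPCs and myelination, and insulin is a usual component of OPC media.

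The promoters of the 3 substrate genes are shown first, because Irs1, Irs2 and Irs4 encode proteins of 1 family and their transcripts differed in their pattern over the groups. The 250 bases before the RefSeq gene start (build GRCm38.p6, minus strand in all 3 cases) are printed from 5′ to 3′, and capitals mark the longest run of bases that the 3 promoters have in common, which was looked for after the promoters had been read. The windows lie at chr1:82291440-82291689 for Irs1, chr8:11008930-11009179 for Irs2 and chrX:141725218-141725467 for Irs4.
Irs1: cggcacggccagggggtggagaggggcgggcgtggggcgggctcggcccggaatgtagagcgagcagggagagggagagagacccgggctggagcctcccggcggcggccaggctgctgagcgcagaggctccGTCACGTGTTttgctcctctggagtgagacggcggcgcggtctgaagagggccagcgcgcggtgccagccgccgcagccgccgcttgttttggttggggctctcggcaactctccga
Irs2: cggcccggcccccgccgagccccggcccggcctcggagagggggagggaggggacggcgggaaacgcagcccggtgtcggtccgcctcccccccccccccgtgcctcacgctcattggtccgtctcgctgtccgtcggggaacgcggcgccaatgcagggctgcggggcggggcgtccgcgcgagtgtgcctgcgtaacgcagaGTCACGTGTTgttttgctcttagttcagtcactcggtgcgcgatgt
Irs4: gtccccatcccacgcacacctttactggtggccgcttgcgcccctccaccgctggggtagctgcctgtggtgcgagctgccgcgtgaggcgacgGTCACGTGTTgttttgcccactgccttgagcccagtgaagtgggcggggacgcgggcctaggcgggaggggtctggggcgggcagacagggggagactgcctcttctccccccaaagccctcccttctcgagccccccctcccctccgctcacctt

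The shared run of 10 bases began 117 bases before the start of Irs1, 46 before that of Irs2 and 156 before that of Irs4. It was held by 25 of 32851 mouse promoter windows of 300 bases (0.0761%, either strand). In Irs2 and Irs4 the common stretch went on for 17 bases, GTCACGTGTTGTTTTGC, and these were the 2 windows of 32851 that held it (0.00609%). The run contains CACGTG, an E-box, which reads the same on both strands and was present in 7.15% of all windows, and among the members it stood in Irs1, Irs2, Irs4 and Igfbp2. Windows were matched for 9 of the 10 members. None of them held the FoxO core GTAAACA (3.65% of all windows, both strands) or the TCF/LEF core ATCAAAG (3.73%), which says only that these letters are not in these windows. The 2 shared runs were found by comparing these same windows, which therefore hold them by construction. All windows were counted without matching for base content, so the shares do not show that the runs are unusual. A match of letters is a description and was not tested as a binding site.

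Levels are given as FPKM, fragments per kilobase of exon scaled to the mapped fragments of a library, as deposited, so levels of different genes are per length. Depths, estimated from the steps between low values, lay between 6556325 and 31614955 fragments per library (median 20526406), and the shallowest was NC siRNA #2 replicate 2. The targets fell in their own knockdowns. Secisbp2l was at 3.87 ± 0.0617 FPKM in siSbp2l and at 138 to 249.8 in the means of the 4 Day3 control groups, and Pdgfra was at 2.996 ± 0.427 in siPdgfra and at 32.5 to 67.4 (SD, n = 2). The 5 OPC markers summed to 1790 to 2109 FPKM at Day0, 654 to 1059 in the controls, 940 to 952 in siSbp2l and 857 to 967 in siPdgfra. Among them Pdgfra was higher in siSbp2l, at 147 ± 3.94 FPKM (SD, n = 2), by 1.54 on the log2 scale (limma, adjusted p = 4.73e-07). Cspg4, Olig1, Olig2 and Sox10 lay within the range of the control libraries in siSbp2l. The 6 OL markers summed to 392 to 435 at Day0 and 4617 to 8696 in the controls. In siSbp2l the OL sum was 1596 to 1780 FPKM, and in siPdgfra 4094 to 4736. Of the single markers in siPdgfra, Cspg4 (0.54 and 0.45 FPKM), Mag (59.6 and 59.2) and Cnp (1108 and 1015) lay below every control library. Apart from the target Pdgfra, the other OPC and OL markers overlapped the control range there. Of 8 microglial markers only P2ry12 reached 1 FPKM, with 8.78 and 9.46 in NC siRNA #1 and 0.703 to 3.85 in the other controls, of 5 endothelial markers only Kdr did, and of 7 mural and fibroblast markers none did. The 5 astrocyte markers, led by Gfap in all Day3 groups, summed to 61.7 to 116 FPKM in the controls, 66.3 to 67.2 in siSbp2l and 24.5 to 26.3 at Day0, and in siPdgfra, with 31.1 to 31.5, they lay below every control library. Neuronal markers summed to 27.6 to 277 FPKM, mostly Tubb3. The part of these marker differences in the results was not tested. Replicates were least alike in non-treated, where the log2 difference between them had an SD of 0.457 over genes, against 0.148 to 0.2 in the other groups.

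Differences were tested with limma on log2(FPKM + 1), with Benjamini-Hochberg adjustment over all genes tested, and a gene was called when it differed at least 2-fold with an adjusted p under 0.05. Fold changes on this scale are understated for low genes. An adjusted p under 0.05 alone was common, as 53.4% of all genes had one in siSbp2l and 55.4% in siPdgfra against the mean of the 4 controls, 52% between the 2 knockdowns and 67% between non-treated and Day0. Genes at 1 FPKM or more in at least 2 libraries were tested, which 8 of the 10 members passed at Day3 (11650 genes) and 9 when Day0 was included (11874 genes). Igf1 was never tested, and Igfbp4 only with Day0. Over all genes the median change was 0.15 in siSbp2l and 0.09 in siPdgfra against the mean of the 4 controls, and -0.12 in non-treated against Day0, on the log2 scale and with the values as deposited. Changes are to be read relative to these shifts. Median-ratio scaling removed the shift in siSbp2l and turned 363 genes called higher and 475 called lower into 213 and 624. In siPdgfra the same scaling turned 462 and 469 into 368 and 581.

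**Figure D1:**
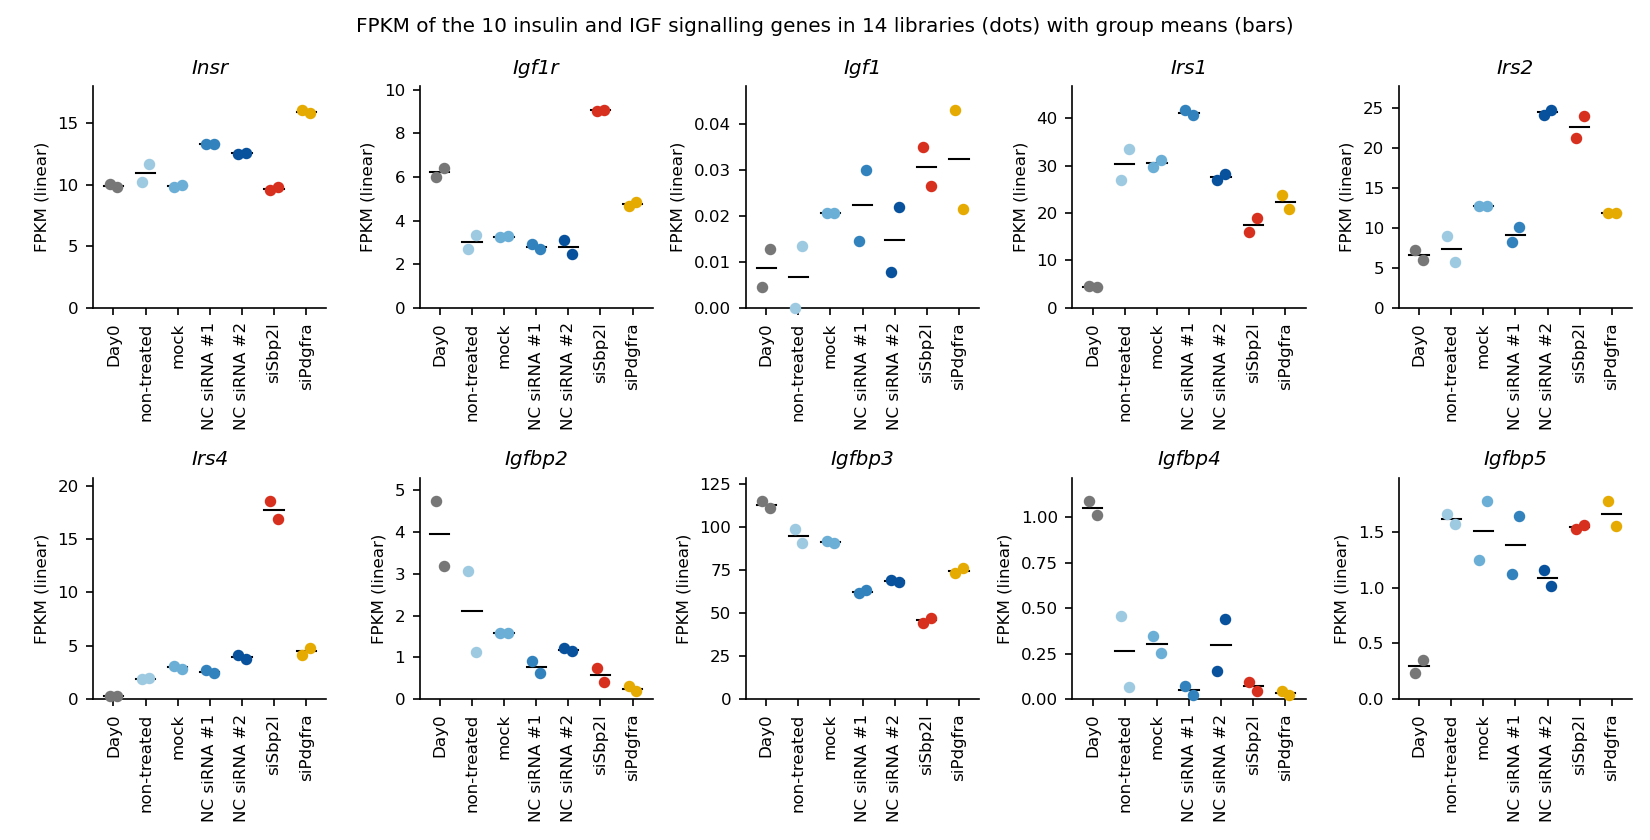
FPKM (linear axis) of each of the 10 genes in the 14 libraries, grouped by condition. Dots are libraries and bars are group means of 2. Irs4 and Igf1r were highest in siSbp2l, Irs1 was lowest at Day0, and Igf1 stayed at or under 0.043 FPKM.

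The receptors Insr and Igf1r went different ways in siSbp2l. Igf1r (chr7:67952257-68233667, mm10, plus strand) was at 9.02 and 9.08 FPKM in siSbp2l. It was at 2.68 and 3.36 in non-treated, 3.24 and 3.30 in mock, 2.92 and 2.68 in NC siRNA #1, and 3.12 and 2.47 in NC siRNA #2. Both siSbp2l libraries thus lay above all other libraries, including Day0 with 6.01 and 6.41 FPKM. The mean level was 3.05 times that of the controls, and the log2 fold change was 1.35 (SE 0.09, limma, adjusted p = 2.17e-06). Igf1r rose against each control on its own, by 1.24 to 1.41 on the log2 scale (limma, largest adjusted p = 2.94e-05). The members were chosen with earlier results of these data known, so these p-values carry that limit. In bulk RNA, a change in the level per cell and a change in the make-up of the culture cannot be told apart. The OL marker sum was lower in siSbp2l than in any control library. Of the OPC markers Pdgfra alone was higher than in any control library. The OPC marker sum of 940 to 952 FPKM lay within the control range of 654 to 1059. The part of these markers in the rise was not tested.

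Igf1r was also higher in siPdgfra, at 4.66 and 4.83 FPKM, above every control library, in a group whose astrocyte markers were lower. That difference of 0.54 (SE 0.09, limma, adjusted p = 0.000903) was under 2-fold, and siSbp2l remained above siPdgfra by 0.81 (SE 0.12, limma, adjusted p = 0.000305). From Day0 to non-treated cells at Day3, Igf1r differed by -0.85 on the log2 scale (SE 0.11, limma, adjusted p = 4.47e-05), also under 2-fold. The siSbp2l level was 1.46 times the Day0 level. The order of the group means was siSbp2l, Day0, siPdgfra and then the 4 controls at 2.79 to 3.27 FPKM. The non-treated libraries overlapped those of every other control, whereas mock lay above both NC siRNA groups.

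Insr (chr8:3150922-3279617, minus strand), in contrast, was at 9.59 and 9.77 FPKM in siSbp2l, just under the lowest control libraries, which were mock with 9.78 and 9.94. Non-treated had 10.2 and 11.7, NC siRNA #1 13.3 and 13.3, and NC siRNA #2 12.5 and 12.6 FPKM. The log2 fold change against the mean of the controls was -0.24 (SE 0.07, limma, adjusted p = 0.0196, over the threshold in 3 of 23 alternative analyses), and against mock alone it was -0.02 (limma, adjusted p = 0.853). Insr was highest in siPdgfra, with 16.1 and 15.8 FPKM in libraries above all others, 0.43 on the log2 scale over the controls (SE 0.07, limma, adjusted p = 0.000768) and under 2-fold. Between siSbp2l and siPdgfra it differed by -0.66 (SE 0.09, limma, adjusted p = 0.000202). At Day0 it had 10.0 and 9.83 FPKM, and its difference from non-treated cells was 0.13 (SE 0.09, limma, adjusted p = 0.209). The siSbp2l, mock and Day0 groups were neighbours in the order of the means, and which of siSbp2l and Day0 was lowest changed when all libraries were scaled to the same sum.

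The ratio of the 2 receptor transcripts followed from these levels. Insr FPKM was 3.02 to 5.10 times Igf1r FPKM in the 8 control libraries and 3.27 and 3.45 times in siPdgfra. In siSbp2l the ratio was 1.06 and 1.08, so the transcripts were about equally abundant per length, and at Day0 it was 1.66 and 1.53. The siSbp2l and Day0 libraries did not overlap with the controls, whereas siPdgfra lay within their range. The sum of both receptors was 18.6 and 18.9 FPKM in siSbp2l, 20.7 and 20.6 in siPdgfra, and 12.9 to 16.2 in the controls.

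Among the substrates, Irs4 (chrX:141710998-141725217, minus strand), whose coding sequence lies in 1 of its 2 exons (GENCODE M21) and whose known tissue range is narrower than that of Irs1 and Irs2, was at 18.5 and 16.9 FPKM in siSbp2l. It was at 1.87 and 1.96 in non-treated, 3.14 and 2.81 in mock, 2.73 and 2.41 in NC siRNA #1, and 4.17 and 3.81 in NC siRNA #2. Both siSbp2l libraries lay above all other libraries, and these values rest on an estimated 2285 to 2346 fragments in siSbp2l and 156 to 482 in the controls. The mean was 6.18 times that of the controls, and the log2 fold change of 2.30, on log2(FPKM + 1), ranked 5 among 11650 genes. Against single controls it was 2.68 for non-treated, 2.23 for mock, 2.39 for NC siRNA #1 and 1.91 for NC siRNA #2. Irs4 was chosen for this rise, so no test is given. It was 1.76 above siPdgfra, likewise a description. The OL marker sum was lower in siSbp2l here too, and of the OPC markers Pdgfra alone was above every control library. Their part was not tested.

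The other comparisons of Irs4 drew on the same control libraries as its choice, or on Day3 libraries through which alone it passed the filter, so they are given without a test as well. In siPdgfra it had 4.18 and 4.84 FPKM, above every control library, although the lower value was next to the 4.17 of NC siRNA #2. The siPdgfra mean was 1.58 times that of the controls. Day0 OPCs had 0.273 and 0.277 FPKM, from an estimated 54.0 and 39.0 fragments, below every Day3 library. The mean FPKM of non-treated cells was 6.96 times the Day0 mean, and that of siSbp2l was 64.3 times. The NC siRNA #2 mean was 1.55 times that of NC siRNA #1, and their libraries did not overlap. The order of the group means was siSbp2l, siPdgfra, NC siRNA #2, mock, NC siRNA #1, non-treated and Day0, in which siPdgfra and its neighbour NC siRNA #2 were 4.51 ± 0.464 and 3.99 ± 0.260 FPKM (SD, n = 2).

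Irs1 (chr1:82233105-82291439, minus strand), the most abundant substrate transcript per length in all 8 control libraries, ran opposite to Irs4 in siSbp2l. It was at 16.0 and 18.9 FPKM in siSbp2l. The controls held 27.0 and 33.4 FPKM in non-treated, 29.8 and 31.2 in mock, 41.8 and 40.6 in NC siRNA #1, and 27.0 and 28.3 in NC siRNA #2. Both siSbp2l libraries lay below every other Day3 library. The log2 fold change was -0.84 (SE 0.10, limma, adjusted p = 7.56e-05), under 2-fold against the mean. Against NC siRNA #1 Irs1 fell by 1.20 (limma, adjusted p = 4.88e-05) and was called, and after median-ratio scaling of the libraries the difference from the mean was -1.003 (limma, adjusted p = 5.31e-05) and was called too.

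Irs1 had the largest difference of the tested members between Day0 and non-treated cells on the log2(FPKM + 1) scale, although by the ratio of mean FPKM it was next to Irs4. It was at 4.54 and 4.28 FPKM at Day0, and it rose by 2.52 on the log2 scale to non-treated cells at Day3 (SE 0.12, limma, adjusted p = 8.71e-09), a mean FPKM 6.86 times higher. In siPdgfra it was at 23.9 and 20.7 FPKM, -0.50 against the mean of the controls (SE 0.10, limma, adjusted p = 0.00182). The siSbp2l level, 3.96 times the Day0 level, therefore lay between Day0 and the Day3 controls. Between siSbp2l and siPdgfra the difference was -0.34 (SE 0.13, limma, adjusted p = 0.0453), which stayed under the threshold in 7 of 13 alternative analyses. Without siSbp2l replicate 1 it was -0.22 (limma, adjusted p = 0.286), and without siPdgfra replicate 1 -0.24 (limma, adjusted p = 0.245). The OL marker sum had the same order for Day0, siSbp2l and the control range as Irs1, and its part in these values was not tested.

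Irs2 (chr8:10986964-11008430, minus strand), the substrate best known from liver and beta cells, depended on which control was used. It was at 21.2 and 24.0 FPKM in siSbp2l. It was at 8.98 and 5.77 in non-treated, 12.7 and 12.7 in mock, and 8.15 and 10.1 in NC siRNA #1. NC siRNA #2 stood apart from these with 24.1 and 24.7 FPKM, above both siSbp2l libraries. Accordingly Irs2 rose in siSbp2l against non-treated, by 1.52 (limma, adjusted p = 5.89e-05), and against NC siRNA #1, by 1.23 (limma, adjusted p = 0.000265), whereas against NC siRNA #2 the difference was -0.11 (SE 0.17, limma, adjusted p = 0.629). Against mock it was 0.78 (limma, adjusted p = 0.00417) and against the mean of the 4 it was 0.85 (SE 0.13, limma, adjusted p = 0.000444), both under 2-fold.

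The difference in Irs2 between the non-targeting siRNAs was itself called, at 1.34 (SE 0.17, limma, adjusted p = 0.000347), the 1 call among 8 tested members in that comparison, where 3.99% of all genes were called. In siPdgfra Irs2 was at 11.8 and 11.8 FPKM, -0.03 against the mean of the controls (SE 0.13, limma, adjusted p = 0.882). That mean joins controls on both sides of siPdgfra. The siPdgfra value lay 0.99 below NC siRNA #2 (limma, adjusted p = 0.000966), just under 2-fold, and 0.64 above non-treated (limma, adjusted p = 0.0101). Its differences from NC siRNA #1 and mock were 0.35 and -0.10 (limma, smallest adjusted p = 0.114). None of these was called. Day0 had 7.19 and 5.96 FPKM, and the difference to non-treated cells was 0.12 (SE 0.17, limma, adjusted p = 0.532). The antisense gene 9530052E02Rik, which overlaps the deposited Irs2 model by 581 bases at its 5′ end, was at 0.11 FPKM or less in every library. That model holds 4012 exon bases, against 6323 in the GENCODE M21 transcript. For Irs1 the 2 lengths were 9163 and 9144, and for Irs4 6248 and 6294. Levels of Irs2 per length, and its share among the substrates, therefore rest on a shorter model than its transcript.

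**Figure D2:**
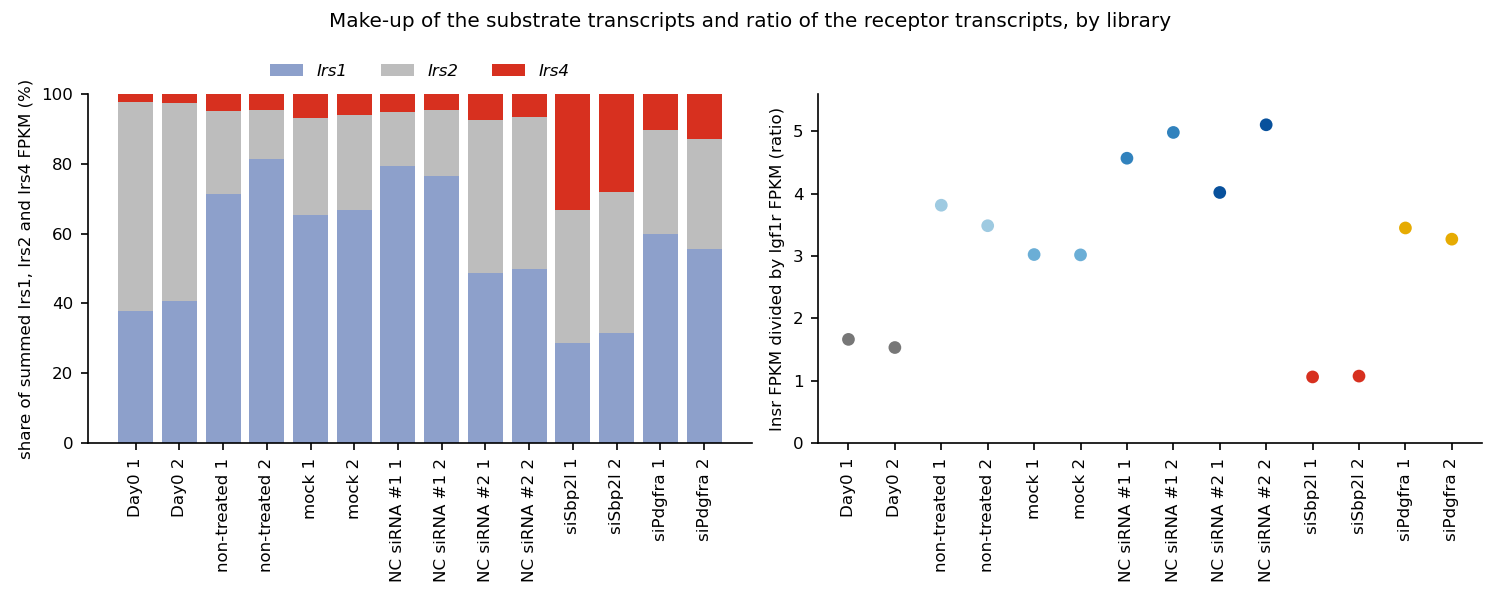
Left, share of each substrate in the summed FPKM of Irs1, Irs2 and Irs4 (%), one bar per library. Right, Insr FPKM divided by Igf1r FPKM, one dot per library. Irs4 took 28.2% and 33.2% in siSbp2l and 4.54% to 7.55% in the 8 control libraries, and the receptor ratio was 1.06 and 1.08 in siSbp2l and 3.02 to 5.10 in those controls.

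The make-up of the substrate transcripts differed between the groups. The 3 substrates summed to 55.7 and 59.8 FPKM in siSbp2l, to 37.9 to 56.8 in the controls, and to 39.8 and 37.4 in siPdgfra, and the lower Day0 library had 10.5. In siSbp2l the sum was close to even between the 3 genes, with 28.7% and 31.7% Irs1, 38.0% and 40.1% Irs2, and 33.2% and 28.2% Irs4. In the controls Irs1 took 48.8% to 81.2% and Irs4 4.54% to 7.55%. Irs4 took 10.5% and 12.9% in siPdgfra and 2.28% and 2.64% at Day0, where Irs2 was the main substrate with 59.9% and 56.7%. The Irs4 shares of siSbp2l and of the controls do not overlap, which follows from the choice of Irs4.

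The ligand Igf1 was near the detection limit in every group. It was listed at 0 in 1 non-treated library and at 0.0045 to 0.043 FPKM in the other 13, which is at most an estimated 7.19 fragments. A count of 3 fragments corresponds to 0.0121 to 0.0585 FPKM in these libraries. No difference in Igf1 was detectable at this depth.

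Igfbp3 (chr11:7206091-7213923, minus strand), a binding protein best known as the main IGF carrier in serum, had the highest FPKM of the 10 genes in every library. It was at 44.6 and 47.5 FPKM in siSbp2l, below all other libraries. The controls fell into higher values without siRNA, 98.9 and 90.6 in non-treated and 92.1 and 90.9 in mock, and lower values with it, 61.6 and 63.5 in NC siRNA #1 and 69.6 and 68.3 in NC siRNA #2. The log2 fold change of siSbp2l was -0.75 against the mean of the 4 (SE 0.07, limma, adjusted p = 1.38e-05). Igfbp3 fell by 1.02 against non-treated and was called (limma, adjusted p = 1.11e-05). Against mock it was -0.98, against NC siRNA #1 -0.43 and against NC siRNA #2 -0.57 (limma, largest adjusted p = 0.00269), all under 2-fold. The difference from mock passed 2-fold after median-ratio scaling, at -1.14 (limma, adjusted p = 3.79e-06), and after upper-quartile scaling, at -1.05 (limma, adjusted p = 7.85e-06). Those from both NC siRNA groups stayed under 2-fold with either scaling.

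In siPdgfra Igfbp3 was at 73.5 and 76.2 FPKM, between the controls with and without siRNA, and its difference from their mean was -0.06 (SE 0.07, limma, adjusted p = 0.459). The value in siSbp2l was -0.69 against siPdgfra (SE 0.09, limma, adjusted p = 0.000119). Day0 was highest, with 115 and 111 FPKM, and the difference of non-treated cells was -0.25 (SE 0.08, limma, adjusted p = 0.0172). It was -0.13 after median-ratio scaling (limma, adjusted p = 0.161) and -0.17 after upper-quartile scaling (limma, adjusted p = 0.082).

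Igfbp2 (chr1:72824480-72852471, plus strand), a binding protein abundant in the developing brain, was low in all groups. It was at 4.74 and 3.18 FPKM at Day0 and at 3.08 and 1.13 in non-treated, 1.59 and 1.59 in mock, 0.917 and 0.633 in NC siRNA #1, and 1.22 and 1.15 in NC siRNA #2. It was at 0.743 and 0.417 FPKM in siSbp2l, which overlapped NC siRNA #1, and at 0.317 and 0.189 in siPdgfra, below every other library. In siPdgfra these values rest on an estimated 9 and 5 fragments. At Day3 it passed the filter through control libraries alone, which favours a lower value in the knockdowns, and its tests there carry that limit. Between Day0 and non-treated cells the difference was -0.73 (SE 0.25, limma, adjusted p = 0.0236). This value rested on single libraries, as it was -0.27 (limma, adjusted p = 0.218) without non-treated replicate 2, -1.20 without non-treated replicate 1 and -0.51 (limma, adjusted p = 0.176) without Day0 replicate 1. Igfbp2 fell in siPdgfra against non-treated by 1.24 (limma, adjusted p = 0.00235) and against mock by 1.05 (limma, adjusted p = 0.00647). It was not called against NC siRNA #1, where the difference was -0.50 with an adjusted p of 0.119, nor against NC siRNA #2, where it was -0.80 with an adjusted p of 0.0223 (limma). Against the mean of the controls it was -0.90 (SE 0.19, limma, adjusted p = 0.00316). In siSbp2l it was -0.57 (SE 0.19, limma, adjusted p = 0.0312), a value that missed the adjusted threshold in 10 of 22 alternative analyses, and siSbp2l and siPdgfra differed by 0.33 (SE 0.25, limma, adjusted p = 0.288).

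Igfbp4, which holds IGFs back until it is cleaved, was at 1.09 and 1.01 FPKM at Day0 and at 0.0242 to 0.458 in the 12 Day3 libraries, none of which reached Day0. It passed the filter through its 2 Day0 libraries alone, so no test of Day0 against Day3 is given. Most Day3 values were a few fragments, from 1 to 19 by estimate, so no knockdown comparison was made. Igfbp5 (chr1:72858065-72874865, minus strand), which also binds extracellular matrix, had 0.238 and 0.349 FPKM at Day0 and 1.02 to 1.77 in all Day3 libraries. It was 5.50 times higher in the mean FPKM of non-treated cells, a description, since it passed the filter through Day3 libraries alone. NC siRNA #2, with 1.16 and 1.02, lay below both knockdowns, non-treated and mock. Against the mean of the controls the differences were 0.09 in siSbp2l (SE 0.11, limma, adjusted p = 0.48) and 0.16 in siPdgfra (SE 0.11, limma, adjusted p = 0.226).

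**Figure D3:**
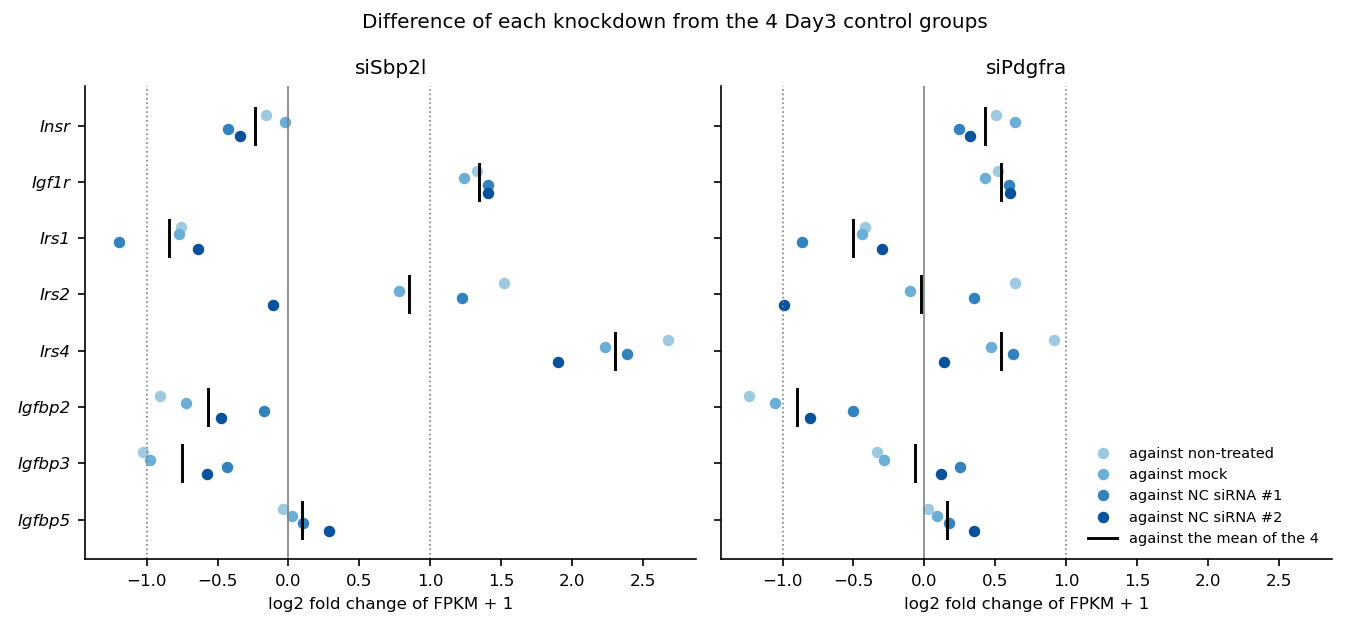
Log2 fold change of FPKM + 1 for the 8 members tested at Day3, in siSbp2l (left) and siPdgfra (right). Dots are the differences from single control groups, black bars the difference from their mean, and dotted lines mark 2-fold. Igf1r lay past 2-fold against all 4 controls in siSbp2l, as did Irs4, which was chosen for it, and Irs2 spread from -0.11 to 1.52.

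The calls can be counted over the members. Against the mean of the 4 controls, 1 of the 7 members tested in siSbp2l besides Irs4 was called, Igf1r, where 7.19% of all genes were (3.12% higher and 4.08% lower). Since the choice of members used this contrast, nothing is read from that count. Against single controls, 3 of 7 were called for non-treated (background 10.6%), 1 for mock (8.01%), 3 for NC siRNA #1 (9.86%) and 1 for NC siRNA #2 (7.67%). Igf1r was the 1 member called against all 4, as 3.23% of all genes were.

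In siPdgfra, limma called 0 of 8 members against the mean of the controls, where 7.99% of all genes were called (3.97% higher and 4.03% lower), and 5 of the 8 had an unadjusted p under 0.05, as did 60.8% of all genes. All 5 of these also had an adjusted p under 0.05, so it was the 2-fold threshold that they missed. Among the 5 are Irs4, given above without a test, and Igfbp2, which passed the filter through control libraries alone. The siPdgfra counts are therefore a description. Igfbp2 was the 1 member called against non-treated (background 11%) and against mock (9.43%). Its way through the filter favours a lower value in the knockdown, so nothing is read from these calls. Against NC siRNA #1 (9.74%) and NC siRNA #2 (10.2%) 0 of 8 were called, with 5 and 6 at an unadjusted p under 0.05 (54.2% and 53.5% of all genes) and 4 in each at an adjusted p under 0.05, and no member was called against all 4 (3.61%). Between siSbp2l and siPdgfra, 0 of 7 members were called, while 13.7% of all genes were. Of these members 5 had an unadjusted p under 0.05, the same number an adjusted one, and 57.7% of all genes had an unadjusted one. Both knockdowns share their controls, so their values are given side by side and not as independent results. From Day0 to non-treated cells, 3 of 9 members were called, all higher (Irs1, Irs4 and Igfbp5), where 26.6% of all genes were. Irs4 and Igfbp5 passed the filter through Day3 libraries alone and Igfbp4 through Day0 alone, so that count is a description. For that comparison the methods name a MiSeq run for the differentiation series and a HiSeq run for the knockdown series. Day0 was deposited with the knockdown series, and the labels do not name the instrument of each library. If Day0 was nonetheless run with the differentiation series, the day and the instrument cannot be told apart.

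Other genes of the pathway were taken from 5 lists with 88 genes, of which 72 were tested at Day3. Against the mean of the controls, 5 rose and 2 fell in siSbp2l, and 1 rose and 5 fell in siPdgfra. These shares of 9.72% and 8.33% stand beside 7.19% and 7.99% of all genes. The median log2 fold change of the 72 genes was 0.35 in siSbp2l, against 0.15 for all genes, and 0.07 in siPdgfra, against 0.09.

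Of the ligands and receptors, Ins1 and Ins2 were listed at 0 in all libraries and Insrr, the insulin receptor-related receptor, at 0.0097 FPKM or less. Igf2 was the more abundant IGF ligand transcript. It was at 0.223 and 0.198 FPKM at Day0, 1.96 and 1.23 in non-treated and 1.33 and 1.64 in mock, and all 8 libraries with an siRNA lay above these, from 3.81 to 6.88. Its difference in siSbp2l from the mean of the controls was 0.77 (SE 0.13, limma, adjusted p = 0.000784), which was not called, and siSbp2l, with 5.98 and 5.90 FPKM, lay within the range of the NC siRNA libraries. Igf2r, which clears IGF2, was at 12.8 and 13.8 FPKM in siSbp2l and 13.6 and 14.1 in siPdgfra, over 5.48 to 11.3 in the controls, by 0.67 and 0.72 (limma, largest adjusted p = 8.48e-05), under 2-fold in both.

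**Figure D4:**
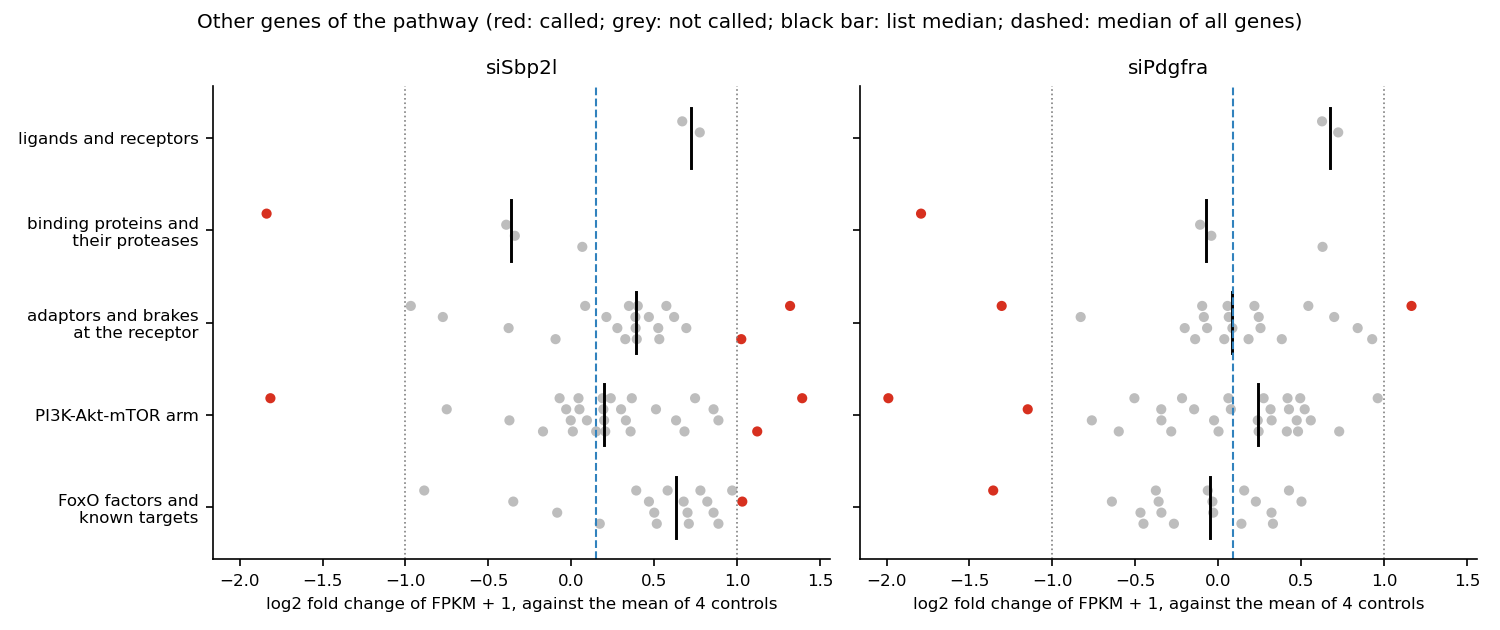
Log2 fold change of FPKM + 1 against the mean of the 4 Day3 controls for the tested genes of 5 pathway lists in siSbp2l (left) and siPdgfra (right). Each dot is a gene, red where called, black bars are list medians, the dashed line is the median of all genes and dotted lines mark 2-fold. Genes of the FoxO list had a median of 0.63 in siSbp2l and -0.05 in siPdgfra.

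Among binding proteins and their proteases, 1 of 4 tested genes was called in each knockdown. Igfbp7, which binds IGFs weakly, fell in siSbp2l by 1.84 (SE 0.14, limma, adjusted p = 3.89e-06) to 1.01 and 1.44 FPKM. It was at 13.6 and 8.82 FPKM in non-treated, 12.5 and 11.7 in mock and 7.68 and 7.76 in NC siRNA #2, but at 1.68 and 2.10 in NC siRNA #1, close to siSbp2l. In siPdgfra the gene called was Igfbpl1, at 0.120 and 0.055 FPKM against 1.41 to 6.98 in the controls, a log2 difference of -1.79. Both siPdgfra libraries were under the 1 FPKM of the filter, which it passed through other groups. That favours a lower value in siPdgfra, so the difference is a description and nothing is read from the call. Between NC siRNA #2 and NC siRNA #1 Igfbpl1 differed by 1.53 on the log2 scale.

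Of 21 tested adaptors and brakes at the receptor, Grb14 and Cblb rose in siSbp2l. Grb14, an adaptor that inhibits the insulin receptor, was at 33.9 and 33.7 FPKM in siSbp2l and 31.2 and 29.5 in siPdgfra, over 9.87 to 21.4 in the controls, by 1.32 and 1.16 (limma, largest adjusted p = 2.37e-06). At Day0 it had 32.5 and 32.2 FPKM. Cblb, a ubiquitin ligase, was at 7.75 and 8.69 FPKM in siSbp2l and 2.74 to 3.89 in the controls, a rise of 1.02 (SE 0.11, limma, adjusted p = 4.06e-05), and at 4.35 and 3.31 in siPdgfra. Socs3, a brake on cytokine and insulin signalling, fell in siPdgfra by 1.31 (SE 0.15, limma, adjusted p = 5.65e-05) to 15.1 and 14.6 FPKM, and was at 44.4 and 48.6 in siSbp2l.

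In the PI3K-Akt-mTOR arm, 2 of 29 tested genes rose and 1 fell in siSbp2l, and 2 fell in siPdgfra. The genes of 2 regulatory subunits of PI3-kinase went opposite ways in siSbp2l. Pik3r1 was at 93.4 and 90.2 FPKM, over 28.4 to 63.9 in the controls, a rise by 2.17 times on this scale (SE of the log2 change 0.10, limma, adjusted p = 1.56e-05). Pik3r3 was at 36.0 and 36.8 FPKM, under 69.96 to 252 in the controls, and fell by 1.81 (SE 0.11, limma, adjusted p = 1.12e-06). Pik3r3 also fell in siPdgfra, to 31.9 and 32.4 FPKM, by 1.99 (SE 0.11, limma, adjusted p = 6.66e-07), while Pik3r1 differed by 0.52 there and was not called. At Day0 Pik3r3 was at 11.5 and 12.5 FPKM and Pik3r1 at 76.8 and 85.7. Rps6kb1, which encodes S6 kinase, fell in siPdgfra by 1.15 (SE 0.13, limma, adjusted p = 4.74e-05), to 10.8 and 11.7 FPKM under 20.6 to 35.6 in the controls.

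The FoxO factors and their known targets had the highest median of the lists with over 5 tested genes in siSbp2l, 0.63 over 18 genes, against -0.05 in siPdgfra, with 1 gene called in each. The 18 genes did not all go the same way, as they ranged from -0.89 to 1.03 in siSbp2l and from -1.36 to 0.50 in siPdgfra. Bcl6, a repressor, rose in siSbp2l by 1.03 (SE 0.11, limma, adjusted p = 3.87e-05), to 10.3 and 10.6 FPKM over 3.69 to 6.10 in the controls. Sesn3, a sestrin that feeds back on mTOR, fell in siPdgfra by 1.36 (SE 0.13, limma, adjusted p = 2.27e-05), to 12.1 and 14.4 FPKM under 25.96 to 40.5 in the controls. Foxo3 itself was at 21.3 and 22.8 FPKM in siSbp2l over 11.3 to 17.7 in the controls, by 0.51 (SE 0.08, limma, adjusted p = 0.000382), which was not called. These lists were drawn up with results of these data already known, so their medians and counts are a description.

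The genes whose pattern was most like that of a member were ranked by Pearson's r of log2(FPKM + 1) over the 14 libraries, which share cultures, controls and the difference between Day0 and Day3, so r is a description. For Irs4 these were Rnd3 (r = 0.97), Fry (r = 0.97) and Kdm5b (r = 0.97), a histone demethylase. Rnd3 had means of 57.6 FPKM in siSbp2l, 28.9 in siPdgfra, 12.9 to 19.3 in the controls and 5.27 at Day0. For Igf1r they were Cnksr2 (r = 0.98), Ctnnd1 (r = 0.98), which encodes p120 catenin, and Gpr125 (r = 0.97), and Ctnnd1 had means of 53.2 FPKM in siSbp2l, 44.4 at Day0 and 24.5 to 27.4 in the controls. For Irs1 they were Tmcc3, Srr and Bace1 (all r = 0.99), of which Bace1, the protease that cleaves neuregulins and amyloid precursor protein, had means of 53.7 FPKM in siSbp2l, 21.5 at Day0 and 77.3 to 98.6 in the controls. For Irs2 r was lower, at most 0.94 for Klc2, whose means were 19.2 FPKM in NC siRNA #2, 16.7 in siSbp2l and 8.78 to 12.5 in the other controls.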

How the data were processed

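Stranded mRNA libraries of cultured OPC/OLs were sequenced in pairs of replicates. The authors processed the reads with OmicSoft ArrayStudio on mm10 (the aligner and counting settings are not given in the sources used here) and deposited FPKM values, 1 column per library. A second table holds the gene positions used here and the authors' own comparisons of siSbp2l with the controls (log2 estimates, fold changes, p-values and adjusted p-values), which were not used. Groups came from the labels. No count test was run, since FPKM values are not counts. Between 88.7% and 92.7% of low values (at least 0.2 FPKM, up to 50 fragments, genes with 1 transcript) were within 0.1 of a whole fragment, which gave the depth estimates. Floors are 3 fragments. They take in counting error alone, as copies made by PCR are not separate molecules.

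limma 3.58.1 in R 4.3.3 was run on log2(FPKM + 1), two-sided, with a trended prior and robust moderation, 1 mean per group, over the 12 Day3 libraries (6 residual degrees of freedom) or all 14 for Day0. Genes needed 1 FPKM in at least 2 libraries. The fit was tested on simulated data. Alternatives were other pseudocounts, filters, scalings, control sets, variance models, a replicate term and leaving out each library. Named genes were the members, the 3 genes most correlated with a member, called genes of the lists (at most 3 each way) and listed ligands and receptors. A called gene of the lists is counted but not reported by name here. Foxo3 was added after its values were seen. Members and lists were chosen with earlier results of these data known. The promoter windows came from RefSeq (GRCm38.p6). Protein sequences were not analysed here. Python 3.11.15 was used for tables and figures.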

Additional observations from a re-analysis of the deposited data

How the results depend on the processing

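Counts of called members depended most on the pseudocount, since many members are low. With 0.1 FPKM, 2 members were called in siSbp2l against the mean of the controls, 1 in siPdgfra against the mean, 1 in siPdgfra against all 4 controls and 6 in non-treated against Day0, whereas the values with 1 FPKM were 1, 0, 0 and 3. With 5 FPKM, 0 members were called in siSbp2l against the mean and 0 against all 4 controls, with Igf1r at 0.82, and 1 between non-treated and Day0. Median-ratio scaling gave 2 calls in siSbp2l, adding Irs1, and moved the split of all called genes there from 363 higher and 475 lower to 213 higher and 624 lower (upper-quartile scaling: 282 and 532). The same scaling changed 462 and 469 to 368 and 581 in siPdgfra. Using only the controls without siRNA, chosen after seeing the data, gave 2 calls in siSbp2l and 1 in siPdgfra. Leaving out 1 library at a time gave 1 to 1 calls in siSbp2l against the mean, 0 to 1 in siPdgfra (1 without non-treated replicate 2) and 2 to 3 in non-treated against Day0.

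Differences that changed sign were near 0 with the main settings and none was called. For Igfbp5 in siSbp2l the log2 fold change was -0.008 with median-ratio scaling and -0.007 with only the controls without siRNA. For Irs2 in siPdgfra it ranged from -0.096 to 0.045 when 1 library was left out (above 0 without non-treated replicate 1 or NC siRNA #1 replicate 2, 0.009) and was 0.27 with the controls without siRNA, and for Igfbp3 in siPdgfra 0.027 without the non-treated group, in the mean or in the fit, and 0.19 with the NC siRNA controls. For Irs2 in non-treated against Day0 it ranged from -0.158 (without non-treated replicate 1) to 0.403, and for Igf1r between the NC siRNAs from -0.13 to 0.117 (0.039 without NC siRNA #1 replicate 1). Over all 23 alternatives Igfbp3 in siPdgfra ran from -0.312 to 0.185 and Irs2 in siPdgfra from -0.321 to 0.27. Each had an adjusted p under 0.05 in 1 of them (limma, 0.00654 for Igfbp3 and 0.0124 for Irs2). The causes were not tested. Igf1r in siSbp2l stayed between 0.82 and 1.58 (highest adjusted p 0.000169) over its 23 alternatives.

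The deviations of same-numbered replicates had a median r of 0.02 over 21 pairs of groups (from -0.38 to 0.47, 4 over 0.1). This does not settle whether the numbers pair the libraries in some groups. With the replicate block, 1 member was called in siSbp2l against the mean and 3 in non-treated against Day0, as without it, and Irs1 between siSbp2l and siPdgfra was -0.34 with an adjusted p of 0.0525 (limma). The depth limits Igf1, Igfbp4 and, in siPdgfra, Igfbp2, which rest on few fragments.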
